A study of Mus musculus with 27 samples.

Results

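Central AML cells, the leukemic cells flushed from the diaphysis of infiltrated bones, were compared with normal granulocyte-macrophage progenitors (GMPs). The comparison took the 9 libraries of central AML and the 9 libraries of GMPs, 18 of the 27 libraries of the series, by their labels alone. The leukemia was made by transducing GMPs of mT/mG mice, which express membrane Tomato, with a pMSCV-MLL-AF9-GFP retrovirus and transplanting them into irradiated primary recipients. Blasts of 3 primary recipients, clones 1, 3 and 19, were passed to secondary recipients that received no conditioning, and DAPI-GFP+mTomato+ cells were sorted at full infiltration, with 3 libraries for each clone. Blasts of clones 1 and 3 had been stored from bone marrow (BM) and those of clone 19 from spleen. GMPs came from the whole BM of wild-type mice matched for age and sex, carried neither the virus nor mT/mG, and formed control sets A, B and C with 3 libraries each. Male and female mice past 6 weeks of age were used in the study, and every GMP library is labelled with 3 mice, which may or may not have been pooled. The column names give the same 3 mice for all libraries of a control set, although the sample titles of set A differ in the third mouse. Libraries of a set may therefore not stand for separate animals. Each clone stands for 1 primary recipient, so the spread between libraries of a clone leaves out most of the spread between donors. Disease, transplantation, the reporter allele and the way of releasing cells (flushed diaphysis or whole BM) all differ together between the groups and cannot be told apart.

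GMPs are committed progenitors of neutrophils and monocytes and make the proteases and the peroxidase of the primary granules. MLL-AF9 joins the chromatin-binding part of MLL to AF9, a partner that recruits factors of transcription elongation, and keeps homeobox genes of the HoxA cluster and their cofactor Meis1 transcribed. Cells with this fusion divide as blasts and carry some features of maturing myeloid cells.

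RNA was read from the 3′ end of polyadenylated transcripts with QuantSeq, in which 1 read stands for 1 transcript fragment whatever the transcript's length. Libraries held 6.94 M to 12.9 M reads in central AML and 5.60 M to 10.7 M in GMPs. The values are CPM, the reads of a gene scaled to the same library total, deposited for 5486 genes that had all passed an FDR of the authors, so counts of genes below describe a preselected set that held 21.97% to 25.6% of the reads. A total of 5008 genes reached 1 CPM in at least 3 of the 18 libraries and were tested as log2(CPM + 1) with limma, taking the mean of the 3 clones minus GMPs. On this scale the fold change of a gene with low CPM is understated. A gene was called where its Benjamini-Hochberg adjusted p was under 0.05 and its log2 fold change was 1 or more in size. CPM values of a group are given below as the lowest, the median and the highest of its 9 libraries, and those of a clone library by library.

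Libraries 22 and 23 of control set B and 25 and 26 of set C (numbered as in the deposited table) stood apart from the other GMP libraries. Their deviations from the GMP mean correlated with each other across genes (Pearson's r of 0.274 to 0.696, genes not being independent replicates) and ran against those of the other 5 libraries (-0.71 to 0.0596). An example is Tmsb4x, which encodes the actin-binding peptide thymosin beta 4 and was at 171, 75.1, 21.4 and 35.3 CPM in these 4 libraries and at 559 to 2036 CPM in the other 5. Without them 1556 genes were called, 849 higher and 707 lower, and 1318 of these were among the 1662 calls with all libraries, all in the same direction. Gm42418, a transcript that overlaps ribosomal RNA, was at 926 to 23017 CPM in central AML and 15888 to 53649 CPM in GMPs, and leaving it out of the library totals gave 1664 calls. Library 9 of set A had 747 genes at 0, against 348 to 505 in the other GMP libraries. Whether these differences between libraries took part in single results was not tested beyond the counts given beside them.

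Central AML and GMPs differed in many genes. Of the 5008 genes 1662 were called (33.2%), 962 of them higher in central AML (19.2%) and 700 lower (14.0%). For 1127 genes (22.5%) no central AML library overlapped any GMP library, and 859 of these were called. The split of calls depended on the scaling: 57.9% of calls were higher on the deposited CPM, 47.3% with TMM scaling, which moved the median of all genes by -0.142, and 46.8% with quantile normalization, which moved it by -0.136. On whole reads recovered from the CPM, edgeR called 2397 genes (45.9% higher) and DESeq2 2385 (47.7%). Of the 1662 calls, 1476 remained after TMM scaling and 1469 after quantile normalization, all in the same direction. The median log2 fold change of all genes tested was 0.30, and medians of gene groups are read beside it. Counts of members called in a group are read beside the shares over all genes tested, 19.2% higher and 14.0% lower.

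Each clone was also compared with the same 9 GMP libraries, so the clone comparisons share their controls. Clone 1 gave 1482 calls (29.6% of genes tested), clone 3 gave 2044 (40.8%) and clone 19 gave 1989 (39.7%). Higher calls were made in all 3 clones for 475 genes and lower calls for 360. A moderated F test between the clones, with a range of clone means of at least 1, called 1362 genes (27.2%), and the same test between the 3 GMP control sets called 258 (5.15%). The latter count rested on single libraries, with 4 calls without library 26 and 840 without library 27. Of the 1662 genes called on the mean of the clones, 582 also differed between clones. On a multidimensional scaling of the libraries the first axis held 57.66% of the variation and the second 13.99%, and central AML lay at -1.58 to -0.98 and GMPs at 1.18 to 1.53 on the first.

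**Figure D1:**
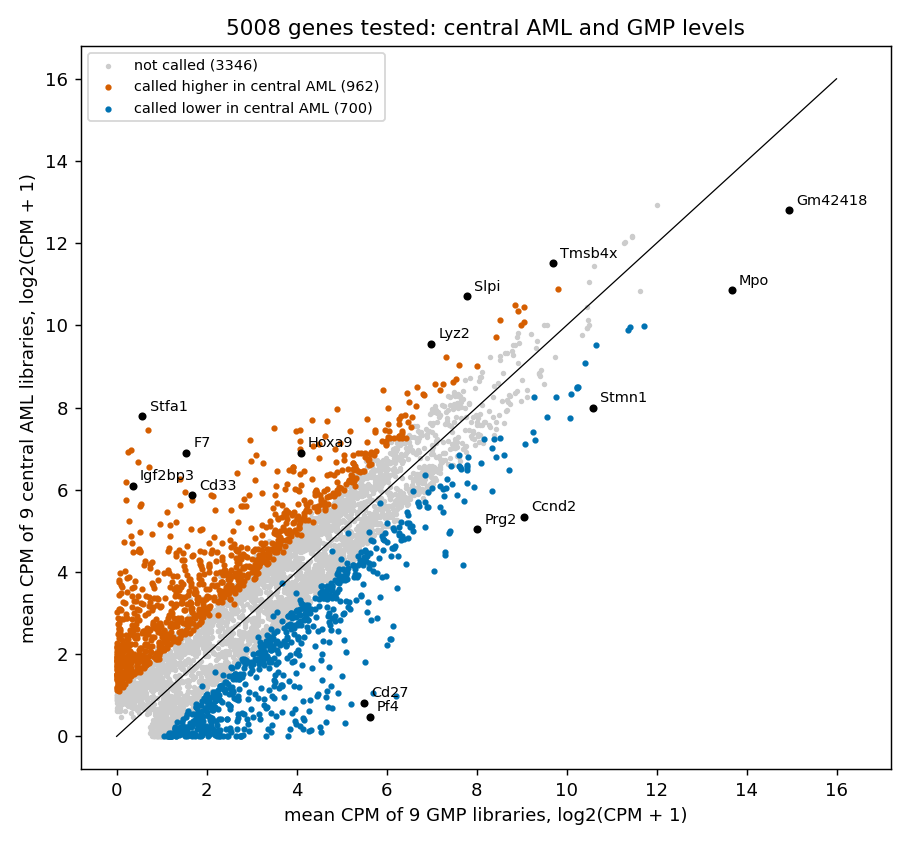
Mean level of each of the 5008 genes in 9 GMP libraries (x axis, log2(CPM + 1)) and in 9 central AML libraries (y axis, same unit), with genes called higher in orange, genes called lower in blue and genes not called in gray; the line marks equal levels. Stfa1, Igf2bp3 and F7 lie far above the line at low GMP levels, and Pf4, Ccnd2 and Cd27 lie far below it.

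The MLL-AF9 program was mostly higher in central AML. Of 14 members tested, 11 were called higher and 1 lower, with a median log2 fold change of 2.30. Hoxa9 (chr6:52223100-52231089, minus strand, GRCm38), the homeobox gene this fusion is best known for, was at 65.7, 126 and 160.3 CPM in central AML and at 5.96, 16.9 and 23.95 CPM in GMPs, a log2 fold change of 2.86 ± 0.20 (SE, adjusted p = 1.5e-10). Its neighbor Hoxa10 was at 5.18, 9.33 and 18.01 CPM against 0, 0.179 and 0.342 CPM, a change of 3.22 ± 0.12 (SE, adjusted p = 1.2e-14). Every central AML library lay above every GMP library for both genes. Hoxa5 (log2 fold change 2.55) and Hoxa7 (2.05) were also called higher without overlap. Meis1, which binds DNA together with HOXA9, was at 48.1, 71.2 and 133 CPM against 7.64, 18.6 and 32.5 CPM, a change of 1.96 ± 0.22 (SE, adjusted p = 2.2e-07). Pbx3, a further homeodomain partner of the complex, was at 62.4, 155 and 345 CPM against 4.47, 11.05 and 15.05 CPM, a change of 3.85 ± 0.19 (SE, adjusted p = 6.3e-13).

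Eya1, a transcriptional coactivator of development, was at 40.1, 60.5 and 157 CPM against 5.69, 6.97 and 11.1 CPM, a change of 3.04 ± 0.14 (SE, adjusted p = 4.6e-13). Igf2bp3, a fetal RNA-binding protein, was at 48.8, 65.8 and 99.5 CPM in central AML and at no more than 0.798 CPM in GMPs, a change of 5.75 ± 0.14 (SE, adjusted p = 2.8e-17). It had the largest fold change of the list and was similar in the 3 clones (log2 6.09, 5.72 and 5.43 in clones 1, 3 and 19). The member called lower was Mef2c, a transcription factor of lymphoid and myeloid progenitors. It was at 123, 238 and 172 CPM in clone 1, 51.3, 55.05 and 52.3 CPM in clone 3 and 15.7, 8.36 and 13.6 CPM in clone 19, against 57.8, 113 and 179.5 CPM in GMPs, and was not called without clone 19 or without the 4 GMP libraries that stood apart. The genes of the fusion partners were read too: Mllt3 (AF9) had a log2 fold change of -2.05 and Kmt2a (MLL) of -0.48, the latter not called. Reads from the 3′ end of the mouse genes cannot check a retroviral fusion, so these values say nothing on the transgene.

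**Figure D2:**
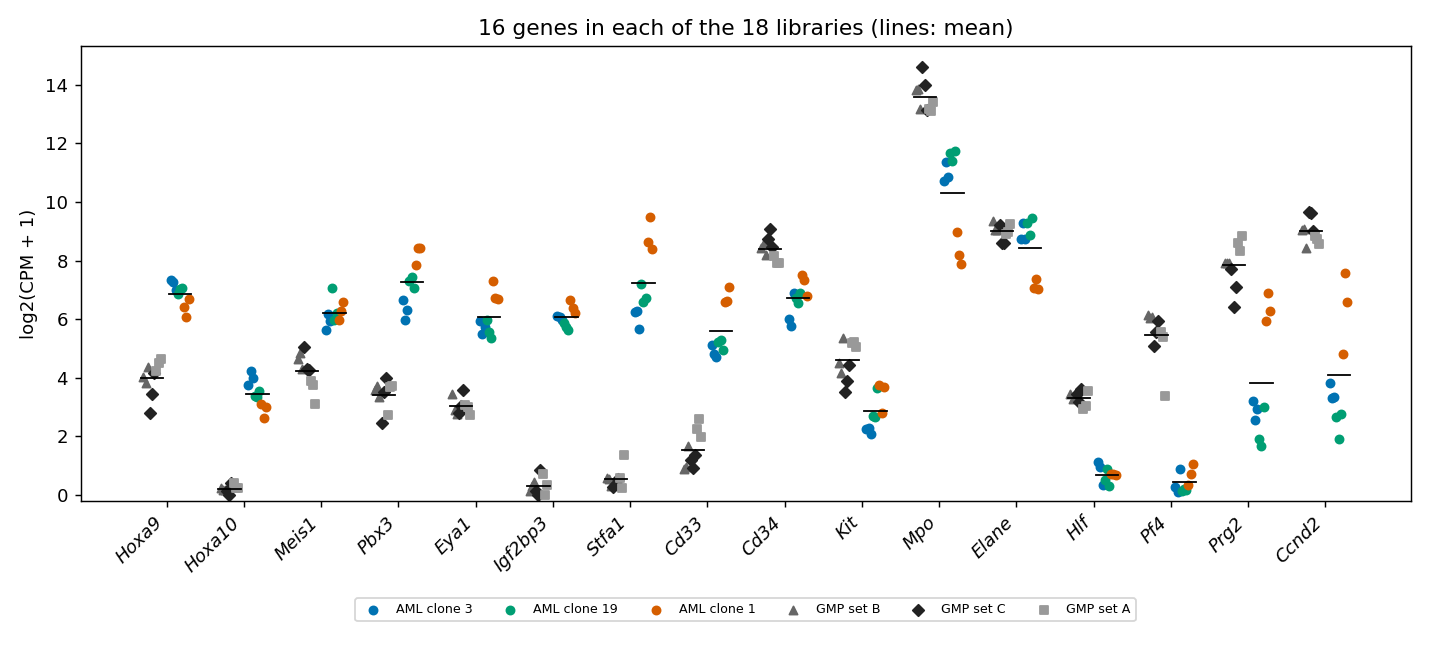
Level of 16 genes in each of the 18 libraries as log2(CPM + 1), with GMP libraries on the left (squares, triangles and diamonds for sets A, B and C) and central AML libraries on the right of each gene (circles, colored by clone); lines mark the mean of 9. Hoxa9, Igf2bp3 and Cd33 separate the groups upward, Hlf and Pf4 downward, and the libraries of Elane overlap.

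The largest fold changes upward were in the stefin A cluster on chromosome 16. Stefins are inhibitors of cysteine cathepsins found in neutrophils and their precursors. Stfa1 was at 49.2, 104 and 713 CPM in central AML and at 0.179, 0.456 and 1.58 CPM in GMPs, a log2 fold change of 6.71 ± 0.18 (SE, adjusted p = 1.1e-16). BC100530 (41.6, 70.4 and 548 CPM against 0.099, 0.485 and 1.30 CPM, log2 fold change 6.21 ± 0.19 SE) and BC117090 (28.6, 56.6 and 395 CPM against 0, 0.163 and 0.839 CPM, log2 fold change 6.13 ± 0.16 SE) followed, and Gm5483 rose by 4.87 ± 0.14 (SE). Stfa3 was at 1.17, 11.3 and 45.3 CPM against 0, 0 and 0.228 CPM, a change of 3.31 ± 0.20 (SE). Clone 1 held the highest values of these genes, with Stfa1 at 394, 713 and 335 CPM, against 75.5, 76.6 and 49.2 CPM in clone 3 and 146, 96.1 and 104 CPM in clone 19, and no central AML library overlapped the GMPs. Stfa2 and Stfa2l1 were at 0 in all 9 GMP libraries. In central AML Stfa2 was at 0.487 to 8.31 CPM and Stfa2l1 at 1.09 to 8.23 CPM, at least 89.8-fold and 81.3-fold higher than a floor of 3 reads over the GMP libraries together. Reads may be shared between the copies, whose 3′ ends were not compared here, so the value of each single copy is uncertain.

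The likeness of the copies around their starts can be read from their promoters, which do not show the 3′ ends that were sequenced. RefSeq's windows of 250 bases before to 50 bases after the start (build GRCm38.p6) were found for 6 of 8 cluster genes, and those of 4 are shown here because their reads may be shared. Capitals mark the longest run of bases common to the 4 windows, which lies across the annotated start.
Stfa1 (chr16:36276898-36277197, plus strand): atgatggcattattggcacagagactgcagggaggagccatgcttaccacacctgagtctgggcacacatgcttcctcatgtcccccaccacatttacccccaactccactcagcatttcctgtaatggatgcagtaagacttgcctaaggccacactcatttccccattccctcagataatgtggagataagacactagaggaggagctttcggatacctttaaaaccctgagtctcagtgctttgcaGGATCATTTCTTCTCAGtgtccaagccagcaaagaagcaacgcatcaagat
Stfa2 (chr16:36408314-36408613, minus strand): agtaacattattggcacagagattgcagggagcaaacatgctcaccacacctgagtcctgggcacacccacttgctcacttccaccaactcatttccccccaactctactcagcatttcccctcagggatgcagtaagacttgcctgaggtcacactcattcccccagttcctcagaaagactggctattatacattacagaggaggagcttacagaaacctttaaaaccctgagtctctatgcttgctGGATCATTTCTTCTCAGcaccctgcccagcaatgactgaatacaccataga
Stfa2l1 (chr16:36156561-36156860, plus strand): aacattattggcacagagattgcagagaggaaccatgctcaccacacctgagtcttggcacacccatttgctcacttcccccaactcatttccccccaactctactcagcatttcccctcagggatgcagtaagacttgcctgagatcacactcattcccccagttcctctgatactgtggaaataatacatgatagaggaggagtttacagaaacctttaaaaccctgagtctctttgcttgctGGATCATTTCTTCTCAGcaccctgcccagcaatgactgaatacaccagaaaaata
Stfa3 (chr16:36455343-36455642, minus strand): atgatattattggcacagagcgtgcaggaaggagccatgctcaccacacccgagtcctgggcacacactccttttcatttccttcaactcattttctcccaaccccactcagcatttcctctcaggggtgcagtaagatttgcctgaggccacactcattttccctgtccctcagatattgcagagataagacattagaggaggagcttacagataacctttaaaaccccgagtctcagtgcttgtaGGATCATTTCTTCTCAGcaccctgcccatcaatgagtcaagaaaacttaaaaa
The run of 17 bases, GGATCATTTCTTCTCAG, searched on both strands, stood in 6 of 32851 promoter windows of the same length (0.0183%). Upstream of it each window holds TTTAAA, which on either strand is found in 13.2% of all windows. The 6 windows with the run include the 4 from which it was taken, and these matches describe the letters only.

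Other genes that were near 0 in GMPs reached far higher levels in central AML. Ccdc154, whose product is a coiled-coil protein, was at 46.7, 69.9 and 107 CPM against 0, 0.163 and 0.373 CPM, a log2 fold change of 5.94 ± 0.11 (SE, adjusted p = 9.8e-19) that was alike in the clones (5.91, 5.56 and 6.34). Hpgd, the enzyme that inactivates prostaglandins, was at 16.6, 105 and 211 CPM against 0, 0.579 and 1.61 CPM, a change of 5.49 ± 0.20 (SE, adjusted p = 1.4e-14). F7, coagulation factor VII, was at 14.7, 131 and 202 CPM against 0.186, 2.05 and 3.86 CPM (log2 fold change 5.00 ± 0.23 SE, adjusted p = 2.7e-13). Apoc2, the apolipoprotein that activates lipoprotein lipase, was at 11.8, 51.9 and 81.6 CPM against 0, 0.403 and 0.815 CPM (log2 fold change 4.84 ± 0.15 SE, adjusted p = 1e-15). All 4 genes kept the groups apart, but Hpgd was lowest in clone 19 (21.02, 16.6 and 25.7 CPM) and F7 and Apoc2 in clone 1 (14.7, 38.4 and 22.9 CPM and 24.7, 12.1 and 11.8 CPM).

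Genes with the largest fold changes downward were mostly close to 0 in central AML, with Ccnd2 as an exception in clone 1. Ifitm1, an interferon-induced membrane protein, was at 0.233, 0.965 and 1.57 CPM against 39.1, 51.6 and 195 CPM, a log2 fold change of -5.06 ± 0.25 (SE, adjusted p = 7.3e-13). Ccnd2, the D-type cyclin of hematopoietic progenitors, was at 2.74, 9.12 and 189 CPM against 347, 513 and 809.9 CPM (log2 fold change -4.92 ± 0.27 SE, adjusted p = 4.3e-12). Clone 1 kept more of it (27.4, 189 and 95.3 CPM) than clone 3 (13.2, 8.85 and 9.12 CPM) or clone 19 (5.36, 2.74 and 5.75 CPM), and the clones differed (adjusted p = 5.2e-06, F test). Ctla2a (-4.64), an inhibitor of cathepsins, Tmem176b (-4.64), Arhgap32 (-4.23), a GTPase-activating protein, and Ppic (-4.20), a cyclophilin, were below 2 CPM in every central AML library and not overlapping. Stmn1, the microtubule-destabilizing stathmin, was abundant in both groups but fell from 1046, 1321 and 2409.5 CPM in GMPs to 200.1, 257 and 298 CPM, a change of -2.55 ± 0.16 (SE, adjusted p = 2.6e-11).

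Genes of a list that joins primary granule genes with other GMP genes were more often called lower than higher. Of 12 members tested, 1 was called higher and 6 lower, with a median of -0.98. The lower calls include Calr, a chaperone, and Ms4a3, so the count is not one of granule proteins alone. Mpo, the myeloperoxidase of the primary granule, was at 233, 1863 and 3451 CPM against 8832, 10822 and 24674 CPM, a log2 fold change of -3.27 ± 0.21 (SE, adjusted p = 5.7e-11) without overlap. It was lowest in clone 1 (500.2, 293 and 233 CPM), against 1678, 2631 and 1863 CPM in clone 3 and 3268, 2704 and 3451 CPM in clone 19. Elane, neutrophil elastase, was not called at 130.1, 430.0 and 705 CPM against 384, 521 and 653 CPM (log2 fold change -0.57 ± 0.13 SE, adjusted p = 0.0006), nor was Prtn3, proteinase 3, at 477, 1111 and 1554 CPM against 603, 1541 and 1932 CPM (log2 fold change -0.55 ± 0.19 SE, adjusted p = 0.013). In both the libraries of the groups overlapped, and clone 1 was lowest (134, 164 and 130.1 CPM for Elane). Nkg7, a granule membrane protein, fell from 156, 192 and 299 CPM to 4.43, 15.02 and 42.7 CPM (log2 fold change -3.90 ± 0.20 SE, adjusted p = 1.6e-12). Ms4a3, a membrane protein that marks GMPs and their progeny, was near 0 in clone 19 (0.965, 0.288 and 2.35 CPM) but not in clone 1 (30.6, 116 and 78.7 CPM) or clone 3 (57.1, 61.6 and 41.4 CPM), against 90.7, 158 and 225 CPM in GMPs. Hp, haptoglobin, was the member called higher, at 341, 534 and 737 CPM against 101, 167 and 306 CPM (log2 fold change 1.45 ± 0.20 SE, adjusted p = 2.3e-06). In bulk samples fewer cells of a type and less RNA per cell cannot be told apart, here and below.

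Genes of later neutrophil maturation were more often called higher than lower. Of 24 members tested, 14 were called higher and 1 lower (Wfdc21), with a median of 1.28. The 9 members not called ran from Csf3r (-0.40) to Ifitm6 (0.91) and included the neutrophil marker Ly6g (0.44). Among those called higher, Ltf and Retnlg had a mean of only 3.23 and 2.41 CPM in central AML. Cd177, a neutrophil surface protein, was at 9.00, 29.7 and 45.8 CPM against 0, 0.872 and 1.49 CPM, a log2 fold change of 4.08 ± 0.21 (SE, adjusted p = 1.6e-12). The secondary granule genes Camp (16.1, 45.99 and 162 CPM against 0, 1.07 and 10.3 CPM, log2 fold change 3.93 ± 0.45 SE, adjusted p = 2e-07) and Ngp (25.4, 62.5 and 260.1 CPM against 0.456, 5.22 and 10.7 CPM, log2 fold change 3.67 ± 0.38 SE, adjusted p = 5.9e-08) separated the groups as well. Ngp was at 151, 260.1 and 62.5 CPM in clone 1 and 34.3, 25.4 and 31.7 CPM in clone 19. Chil3, a chitinase-like lectin of neutrophils and macrophages, ranged from 7.79 to 363 CPM in central AML against 0.403, 1.59 and 3.82 CPM (log2 fold change 4.01 ± 0.49 SE, adjusted p = 5.4e-07). The calcium-binding pair S100a9 (99.9, 128 and 305 CPM against 1.69, 12.6 and 38.9 CPM, log2 fold change 3.86 ± 0.45 SE) and S100a8 (326, 511 and 1208 CPM against 52.8, 141 and 276 CPM, log2 fold change 1.99 ± 0.30 SE) rose together. The lowest GMP values of S100a9 were in the libraries that stood apart (12.6, 5.26, 1.69 and 3.02 CPM), and without them its change was 3.08. The change of Camp without them was 3.04. Lyz2, the lysozyme of neutrophils and macrophages, was at 265, 450.4 and 1657 CPM against 67.5, 129 and 177 CPM (log2 fold change 2.30 ± 0.20 SE, adjusted p = 3.9e-09) and was highest in clone 3 (1657, 1213 and 1364 CPM).

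Monocyte and macrophage genes were mixed with more members higher. Of 16 tested, 9 were called higher and 2 lower (Irf8 and Klf4), with a median of 1.47. Adgre1, which encodes the macrophage antigen F4/80, was at 9.53, 22.05 and 30.04 CPM against 0.584, 1.36 and 2.78 CPM, a log2 fold change of 3.12 ± 0.20 (SE, adjusted p = 3.5e-11). Cd68, a lysosomal glycoprotein of macrophages, was at 37.2, 61.4 and 90.6 CPM against 10.6, 12.1 and 15.1 CPM (log2 fold change 2.24 ± 0.13 SE, adjusted p = 1.8e-11). The galectin gene Lgals3 was at 37.3, 90.1 and 152 CPM against 6.20, 14.7 and 20.7 CPM (log2 fold change 2.45 ± 0.18 SE, adjusted p = 4.9e-10). These 3 genes did not overlap between the groups. The factors Irf8 and Klf4, which direct monocyte fate, were called lower. Irf8 was at 54.03, 160.1 and 365 CPM against 231, 329.7 and 429 CPM (log2 fold change -1.34 ± 0.17 SE, adjusted p = 1e-06), lowest in clone 19 (68.4, 54.03 and 76.03 CPM), and Klf4 at 34.6, 80.4 and 176 CPM against 122, 353 and 718 CPM (log2 fold change -2.24 ± 0.29 SE, adjusted p = 1.3e-06). Mgl2, a lectin of macrophages and dendritic cells, was at 173, 186 and 159 CPM in clone 3 and 252, 263 and 242 CPM in clone 19 but at 12.7, 3.24 and 2.43 CPM in clone 1, with 2 of its 3 libraries below all GMPs (11.5, 14.4 and 24.6 CPM). Lpl, lipoprotein lipase, was at 68.1, 21.8 and 30.7 CPM in clone 1 and 94.5, 61.3 and 133 CPM in clone 3, while clone 19 (5.26, 3.60 and 7.63 CPM) lay within the GMP range of 1.99 to 8.48 CPM. The summed CPM of the 16 members overlapped between the groups, at 1254 to 2498 in central AML and 1382 to 2165 in GMPs.

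Stem and progenitor genes were mostly lower. Of 16 members tested, 2 were called higher (Lmo2 and Ikzf2) and 9 lower, with a median of -1.50. Cd34, the sialomucin used to gate GMPs, was at 53.7, 110.1 and 179 CPM against 241, 340.0 and 537 CPM (log2 fold change -1.67 ± 0.17 SE, adjusted p = 5.7e-08). Kit, the receptor of stem cell factor used in the same gate, was at 3.24, 5.47 and 12.4 CPM against 10.3, 21.6 and 40.4 CPM (log2 fold change -1.72 ± 0.25 SE, adjusted p = 4.2e-06). Cd34 did not overlap, whereas the highest central AML library of Kit lay above the lowest GMP library. Cd27, a TNF receptor of early progenitors, fell from 23.3, 43.2 and 52.5 CPM to 0, 0.621 and 2.31 CPM (log2 fold change -4.74 ± 0.16 SE, adjusted p = 2e-15). The transcription factors Tal1 (-3.96), Hlf (-2.63), Bcl11a (-4.47) and Sox4 (-2.11) were called lower without overlap, with Tal1 at most 0.256 CPM in central AML and at least 14.3 CPM in GMPs. Angpt1, the angiopoietin that progenitors secrete, overlapped the GMPs in clone 1 (11.1, 45.2 and 62.5 CPM against 10.3, 31.1 and 42.2 CPM) but not in clone 3 (2.51, 4.43 and 3.75 CPM) or clone 19 (1.07, 1.44 and 3.05 CPM). Flt3, the receptor of FLT3 ligand, had a mean change of 0.03, made up of 1.85 ± 0.29 (SE, adjusted p = 2.4e-05) in clone 1, -1.42 ± 0.29 (SE, adjusted p = 0.00028) in clone 3 and -0.35 in clone 19.

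Eosinophil, basophil and mast cell genes, which mark other myeloid lineages that GMP-gated cells can hold, were lower in central AML. All 13 genes of the list tested were called lower, with a median of -1.63, and 13 remained lower without the 4 GMP libraries that stood apart. Of the 13, 7 also differed between the GMP control sets in the F test, against 5.15% of all genes, so the controls themselves varied. By clone, 10 were called lower and 1 higher in clone 1, 13 lower in clone 3 and 12 lower in clone 19. Hdc was at 0.35 (log2) in clone 19. Their summed CPM was 79.1 to 287 in central AML and 323 to 905 in GMPs. Prg2, the major basic protein of eosinophils, was at 2.16, 7.04 and 119 CPM against 84.2, 241 and 462 CPM (log2 fold change -4.04 ± 0.27 SE, adjusted p = 1.1e-10), with clone 1 at 60.2, 119 and 77.02 CPM overlapping the GMPs. Epx, eosinophil peroxidase, was at 0, 0 and 0.365 CPM against 2.62, 8.76 and 25.5 CPM (log2 fold change -3.11 ± 0.27 SE, adjusted p = 4.1e-09). Prss34, a basophil protease, was at 0, 0.388 and 4.99 CPM against 11.7, 25.4 and 38.8 CPM (log2 fold change -3.79 ± 0.21 SE, adjusted p = 4.6e-12). Both genes kept the groups apart. Cpa3, the carboxypeptidase of mast cells, was called lower on the mean of the clones but not in each clone: it was at 66.2, 94.003 and 68.6 CPM in clone 1, 18.5, 9.71 and 8.26 CPM in clone 3 and 1.502, 0.432 and 2.82 CPM in clone 19, against 7.34, 36.6 and 59.9 CPM in GMPs. Its mean change of -1.12 became 0.11 without clone 19.

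Megakaryocyte genes (1 called higher and 4 lower of 6 tested) and erythroid genes (1 higher and 4 lower of 10) were mostly lower where called. Higher calls were Gp1bb (1.18, and 0.90 without clone 1, not called) and Rhd (1.59). The lower calls were Pf4, Itga2b, Plek (-2.02) and Gp5 (-1.60) and, of the erythroid genes, Car1 (-2.19), Car2, Gata1 and Aqp1. Itga2b, the platelet integrin CD41, fell from 16.7, 43.5 and 65.3 CPM to 0.144, 1.01 and 7.86 CPM (log2 fold change -3.97 ± 0.23 SE, adjusted p = 1.2e-11). Car2, the carbonic anhydrase of erythroid cells, was at 0, 0.107 and 0.256 CPM against 3.38, 6.30 and 12.3 CPM (log2 fold change -2.73 ± 0.18 SE, adjusted p = 8.3e-11). Gata1, the erythroid and megakaryocyte factor, was at 0, 0.144 and 0.487 CPM against 1.89, 3.00 and 5.36 CPM (log2 fold change -1.82 ± 0.15 SE, adjusted p = 1.4e-09). The water channel Aqp1 was at 0, 0.243 and 5.64 CPM against 4.38, 18.4 and 25.98 CPM (log2 fold change -3.39 ± 0.35 SE, adjusted p = 4.8e-08). A single clone 1 library carried the highest Aqp1 value of central AML, and the other 8 were at 0.469 CPM or less. Summed erythroid CPM was 33.1 to 75.9 in central AML and 48.6 to 155 in GMPs. Of lineages outside the gate, 0 of 5 B lineage genes were called by limma (3 at an unadjusted p under 0.05, and 1 called by edgeR and by DESeq2), 1 of 3 T and NK genes (Nkg7) and 3 of 8 stromal and endothelial genes (Cxcl12 higher, Col1a1 at -1.23 and Eng at -3.96). The B lineage genes summed to 14.97 to 28.2 CPM in central AML and 13.7 to 19.1 CPM in GMPs, and the stromal genes to 0.834 to 12.2 CPM and 17.3 to 74.8 CPM. Eng, at a mean of 26.5 CPM, made up most of the stromal sum in GMPs. Cxcl12, at a mean of 4.51 CPM, made up most of it in central AML. Nkg7 is the granule membrane protein given above with the GMP genes. These calls and sums thus rest on single genes and do not identify stromal, T or NK cells.

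**Figure D3:**
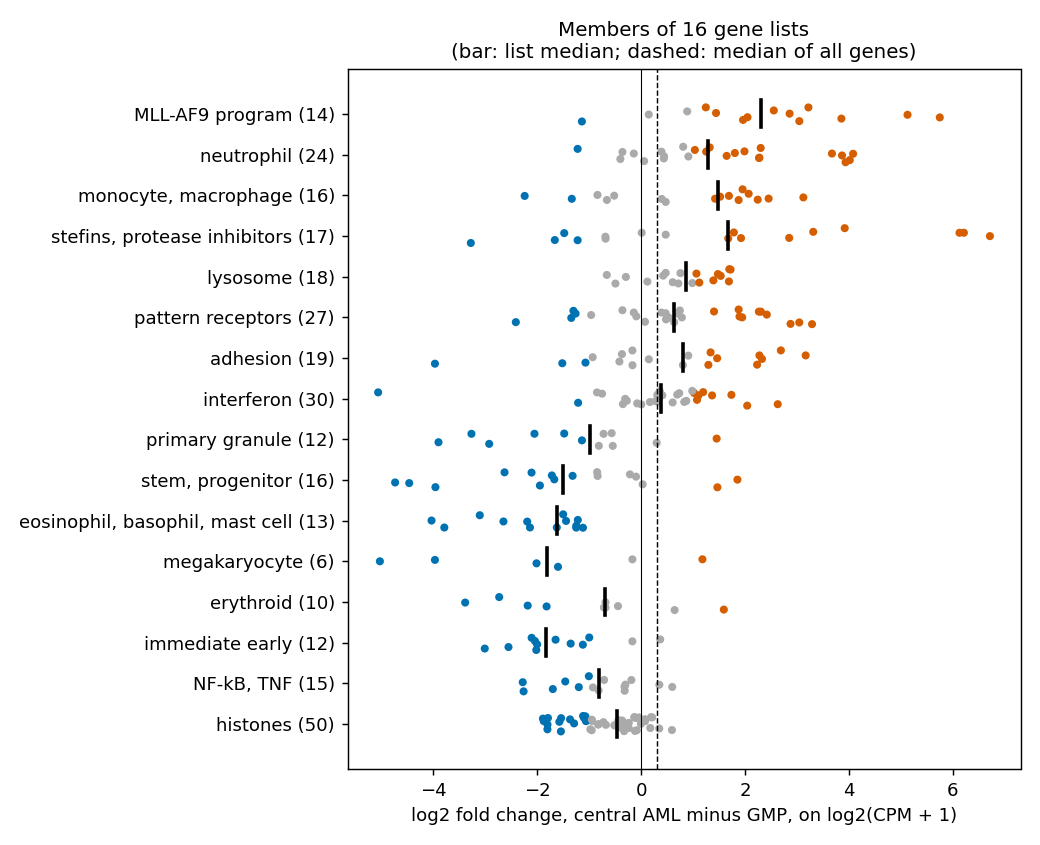
Log2 fold change of each tested member of 16 gene lists (x axis, central AML minus GMP on log2(CPM + 1)), colored orange where called higher, blue where called lower and gray where not called, with a bar at each list's median and a dashed line at the median of all genes, 0.30. The MLL-AF9 program and neutrophil genes lie to the right, and all 13 eosinophil, basophil and mast cell genes and 10 of 12 immediate early genes are called lower.

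Surface antigens of AML blasts were called in both directions (2 higher and 4 lower of 13 tested, beside 19.2% and 14.0% of all genes). Cd33, a sialic acid-binding receptor of myeloid cells, was at 25.4, 36.5 and 135 CPM against 0.872, 1.60 and 5.00 CPM, a log2 fold change of 4.06 ± 0.22 (SE, adjusted p = 2.8e-12), and was highest in clone 1 (95.9, 96.9 and 135 CPM). Adgre5, the adhesion receptor CD97, was the other antigen called higher, at 48.99, 57.9 and 71.3 CPM against 11.5, 20.6 and 30.5 CPM (log2 fold change 1.499 ± 0.15 SE, adjusted p = 3.3e-08). Besides Cd34 and Kit, Cd93 and Adgrg1 (GPR56) were called lower. Cd93 was at 285, 306 and 219 CPM in clone 1, 75.3, 79.9 and 170.5 CPM in clone 3 and 84.8, 75.4 and 82.7 CPM in clone 19 against 305, 363 and 434 CPM in GMPs, and Adgrg1 at 24.7, 51.4 and 144 CPM against 137, 189 and 233 CPM (log2 fold change -1.88 ± 0.15 SE, adjusted p = 8.8e-10). Both antigens were highest in clone 1, where at least 1 library overlapped the GMPs.

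Among adhesion genes 8 of 19 were called higher and 3 lower. Among cytokine, growth factor and chemokine receptors 6 of 20 were called higher and 4 lower. Over all genes tested 19.2% were called higher and 14.0% lower. The lower calls were Itga2b, Itga6 (-1.07) and Cdh1 (-1.52) for adhesion and Kit, Il6st (-1.17), Il1r1 (-1.06) and Igf1r (-1.23) for the receptors. Itgb2, the shared chain of the leukocyte integrins, was at 32.2, 46.1 and 75.5 CPM against 1.41, 3.76 and 12.7 CPM (log2 fold change 3.16 ± 0.29 SE, adjusted p = 1.1e-08). Its partner Itgam (CD11b) was at 16.4, 23.1 and 48.6 CPM against 2.34, 4.33 and 8.58 CPM (log2 fold change 2.27 ± 0.20 SE, adjusted p = 4.5e-09). Ncam1, the neural adhesion molecule CD56, was at 109, 148 and 203 CPM against 15.5, 23.4 and 31.3 CPM (log2 fold change 2.69 ± 0.13 SE, adjusted p = 4.1e-13), without overlap. Vcam1, the ligand of integrin VLA-4, was at 93.6, 163 and 156 CPM in clone 1 and 111, 101 and 127 CPM in clone 19, while clone 3 (10.8, 14.98 and 12.3 CPM) lay within the GMP range of 4.67 to 32.2 CPM. Csf2ra, the alpha chain of the GM-CSF receptor, was at 22.9, 78.4 and 96.03 CPM against 5.56, 10.6 and 14.4 CPM (log2 fold change 2.51 ± 0.18 SE, adjusted p = 2.8e-10). Cxcr4, the receptor that retains cells in BM, was at 226, 314 and 512 CPM against 28.2, 115 and 196 CPM (log2 fold change 1.72 ± 0.31 SE, adjusted p = 6.4e-05) and did not overlap, and its change was 1.03 without the 4 GMP libraries that stood apart. Its ligand Cxcl12, a stromal gene, was at 7.54, 10.6 and 4.86 CPM in clone 3 and 4.18, 5.76 and 7.04 CPM in clone 19, at 0.256, 0 and 0.365 CPM in clone 1 and at most 0.357 CPM in GMPs.

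Immediate early genes, whose transcription follows a stimulus within minutes, were mostly lower in central AML. Of 12 tested, 0 were called higher and 10 lower, with a median of -1.83. Atf3 was at 1.21, 5.28 and 17.4 CPM against 31.1, 44.2 and 85.7 CPM (log2 fold change -3.01 ± 0.25 SE, adjusted p = 2.6e-09). Klf6 was at 52.4, 164 and 434 CPM against 435, 1103 and 1596 CPM (log2 fold change -2.56 ± 0.23 SE, adjusted p = 5.6e-09). Ier3 was at 21.7, 64.2 and 121 CPM against 179, 249 and 322 CPM (log2 fold change -2.05 ± 0.15 SE, adjusted p = 5.3e-10). The AP-1 subunit Jun was at 751, 372 and 299 CPM in clone 1, 72.9, 112 and 153 CPM in clone 3 and 405, 399.6 and 341 CPM in clone 19, against 662, 1076 and 1448 CPM in GMPs. Fosb, its partner, was at 236, 67.2 and 106 CPM, 6.03, 10.3 and 24.96 CPM and 64.1, 65.7 and 54.7 CPM in the same clones, against 83.6, 232 and 383 CPM. Of the 12 genes, 11 differed between clones in the F test, and the clone medians were -0.70 in clone 1, -2.86 in clone 3 and -1.43 in clone 19. Disease and the way of releasing cells differed together between the groups and cannot be told apart here.

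Among the core genes of TNF and NF-kB signaling, 0 of 15 were called higher and 6 lower, with a median of -0.82. Nfkbiz (1.40, 5.96 and 25.2 CPM against 21.8, 34.6 and 56.1 CPM, log2 fold change -2.28 ± 0.23 SE, adjusted p = 4.9e-08) and Tnfaip3 (0.466, 0.833 and 4.99 CPM against 3.32, 6.16 and 23.7 CPM, log2 fold change -2.26 ± 0.35 SE, adjusted p = 1e-05), which NF-kB itself induces, were among them. Nfkbia, the inhibitor that holds NF-kB in the cytoplasm, was at 88.5, 135 and 206 CPM against 60.5, 578 and 858 CPM (log2 fold change -1.70 ± 0.38 SE, adjusted p = 0.00049), and the GMP libraries that stood apart held 578, 473, 60.5 and 208 CPM. Tnf was at 21.1, 9.62 and 4.50 CPM in clone 1, 1.81, 2.64 and 6.05 CPM in clone 3 and 10.3, 10.4 and 6.80 CPM in clone 19 against 9.36, 17.8 and 24.9 CPM in GMPs (log2 fold change -1.20 ± 0.25 SE, adjusted p = 0.00026), and was not called without clone 3 (-0.76). Nlrp3, the sensor of the inflammasome, fell from 14.02, 18.997 and 42.4 CPM to 1.32, 2.47 and 14.4 CPM (log2 fold change -2.41 ± 0.24 SE, adjusted p = 4.1e-08).

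Interferon-responsive genes separated the clones. On the mean of the clones 8 of 30 were called higher and 2 lower (Ifitm1 and Gbp7), with a median of 0.38 that was -0.01 without clone 3, but against the same GMPs clone 3 had 21 higher and 1 lower (median 1.33), clone 1 had 1 higher and 3 lower (median -0.10) and clone 19 had 3 higher and 4 lower (median 0.18). The F test called 25 of the 30 between clones. Irf7, the factor that amplifies the interferon response, was at 17.999, 34.8 and 87.3 CPM in clone 3, 8.44, 2.78 and 4.62 CPM in clone 1 and 9.01, 6.34 and 7.51 CPM in clone 19, against 0.466, 2.10 and 4.24 CPM in GMPs. Ifit3, an antiviral effector, was at 4.42, 7.84 and 13.3 CPM, 0.383, 0.093 and 0.73 CPM and 1.29, 0.576 and 2.00 CPM in the same order, against 0, 0.101 and 0.652 CPM. The antiviral synthetase Oas2 was at 3.32, 8.54 and 13.1 CPM in clone 3 and Ifi27l2a, a small protein induced by interferon, at 37.7, 47.7 and 60.8 CPM, against at most 0.815 and 2.92 CPM in GMPs. For Irf7, Ifit3 and Ifi27l2a every library of clone 3 lay above every library of the other clones.

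**Figure D4:**
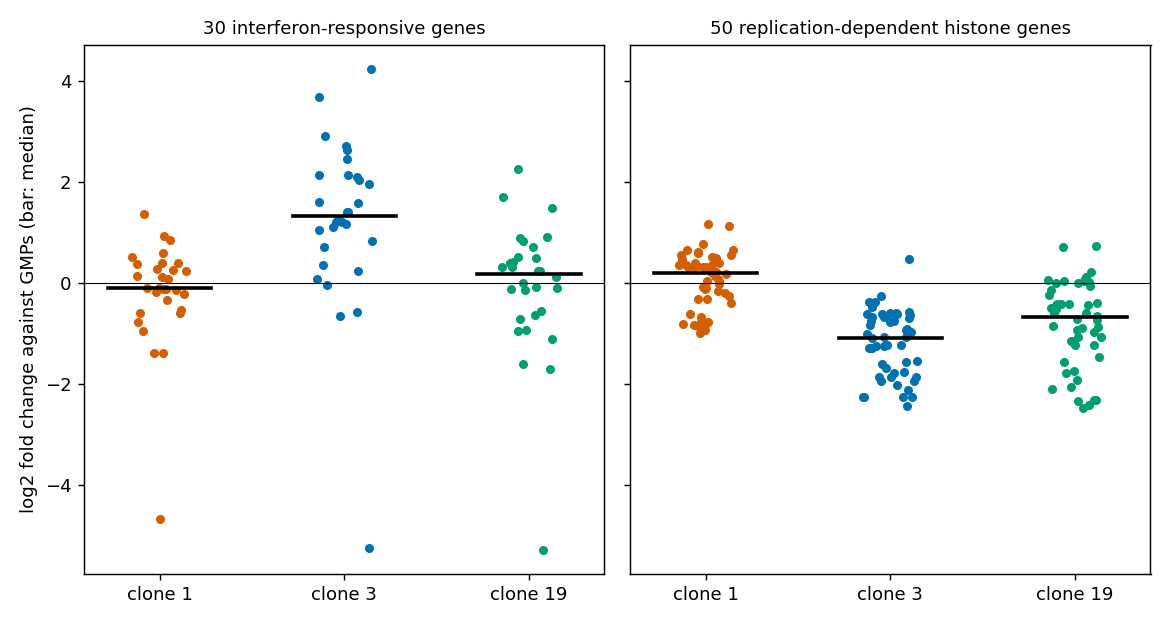
Log2 fold change against GMPs in clones 1, 3 and 19 of each of 30 interferon-responsive genes (left) and 50 replication-dependent histone genes (right), with bars at the medians; the clones share the 9 GMP libraries. Clone 3 has the highest median of interferon genes (1.33) and the lowest of histone genes (-1.08), where clone 1 stands at 0.21. The libraries target polyadenylated transcripts, so histone transcripts that are not polyadenylated are not covered.

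The study followed cytokines that act on blood vessels, of which Cxcl2, Il12a, Il18, Pf4, Vegfa and Tnf were in the table used here. It measured VEGF-A in serum and CXCL2 and TNF in marrow fluid and serum as protein. Its Cxcl2 RNA result compared endosteal with central AML cells. The values here are RNA of central AML cells against GMPs, another measure and another contrast, so they do not test those results. Cxcl2, a chemokine of neutrophils, was at 29.3, 9.71 and 11.9 CPM in clone 1, 0.402, 0.078 and 1.79 CPM in clone 3 and 3.86, 3.89 and 6.80 CPM in clone 19, against 1.61, 9.01 and 28.95 CPM in GMPs. It was not called on the mean of the clones (log2 fold change -0.96 ± 0.43 SE, adjusted p = 0.043), but it was called lower in clone 3 (log2 fold change -2.67 ± 0.61 SE, adjusted p = 0.00077). Its mean change was -1.73 without the 4 GMP libraries that stood apart and -1.76 without clone 1, both called, but -0.10 without clone 3 (adjusted p = 0.85). Il12a, a subunit of interleukin 12, stayed at 1.64 CPM or less in central AML and 0.993 CPM or less in GMPs (log2 fold change 0.15 ± 0.13 SE, adjusted p = 0.27). Il18 was at 0, 0.804 and 1.79 CPM against 1.14, 1.71 and 3.01 CPM (log2 fold change -0.77 ± 0.14 SE, adjusted p = 7.4e-05), a change under 1 in size that was not called on the mean of the clones. Pf4, the platelet chemokine CXCL4, fell from 9.32, 46.6 and 69.3 CPM to 0.078, 0.201 and 1.09 CPM (log2 fold change -5.03 ± 0.29 SE, adjusted p = 8.7e-12), with the lowest GMP value in library 9. Cxcl10 was not analysed here. Vegfa, the growth factor of endothelial cells, was at 2.61, 7.41 and 10.6 CPM against 8.30, 13.4 and 30.03 CPM (log2 fold change -1.14 ± 0.20 SE, adjusted p = 4.6e-05), with overlap between the groups, and was not called without clone 3 (-0.79). It was lowest in clone 3 (2.61, 5.12 and 2.90 CPM). Of 9 tested members of the whole list of vessel-acting cytokines, 1 was called higher and 4 lower (Pf4, Vegfa, Angpt1 and Tnf). The higher call was Pgf, placental growth factor, at 0.511, 1.86 and 4.18 CPM against 0, 0.114 and 0.596 CPM (log2 fold change 1.17 ± 0.13 SE, adjusted p = 1.1e-07), not called without clone 19 (0.95). Il1rn, the antagonist of interleukin 1, rose from 0.199, 0.704 and 2.05 CPM to 2.13, 15.1 and 21.8 CPM (log2 fold change 2.69 ± 0.18 SE, adjusted p = 1.2e-10), with clone 1 lowest (5.11, 2.13 and 4.62 CPM).

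Lysosomal and phagocyte genes rose in part. Of 18 cathepsins and other lysosomal genes 8 were called higher and 0 lower, 7 and 1 without the 4 GMP libraries that stood apart, with a median of 0.87. Grn, the lysosomal protein progranulin, was at 418, 932 and 2236 CPM against 151, 253 and 875 CPM (log2 fold change 1.72 ± 0.30 SE, adjusted p = 4.7e-05). Of the 5 tested subunits of the phagocyte NADPH oxidase, Cyba and Ncf4 were called higher and the other 3 had an adjusted p under 0.05 with a smaller rise. Cyba, the membrane subunit p22phox, was at 265, 342 and 371 CPM against 74.1, 85.97 and 102 CPM, a log2 fold change of 1.91 ± 0.09 (SE, adjusted p = 6.3e-13). Of 27 Toll-like, NOD-like, Fc and lectin receptors, 10 were called higher and 4 lower (Nlrp3, Tlr2, Clec5a and Trem1). The inhibitory receptors Pirb (7.78, 16.7 and 27.6 CPM against 0.342, 0.489 and 1.55 CPM, log2 fold change 3.29 ± 0.17 SE, adjusted p = 2.6e-12) and Cd300lf (6.10, 8.04 and 17.5 CPM against 0.093, 0.199 and 0.678 CPM, log2 fold change 3.04 ± 0.12 SE, adjusted p = 6.4e-14) did not overlap between the groups. Slpi, a secreted inhibitor of neutrophil elastase, was at 1920.1, 4799 and 6246 CPM in clone 1, 611, 347 and 632 CPM in clone 3 and 147, 124 and 222 CPM in clone 19, against 131, 215 and 301 CPM in GMPs. Its mean change of 1.67 ± 0.22 (SE) was 2.72 without clone 19 and was not called without clone 1 (0.42).

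Of 10 G1 regulators of the cell cycle tested, 4 were called higher and 1 lower, and these were Cdkn2a, Cdkn1c, Cdkn2c and Cdkn2d, which encode inhibitors of cyclin-dependent kinases, and Ccnd2. Cdkn2a, the locus of p16 and ARF, was at 11.2, 8.97 and 14.8 CPM in clone 1, 23.3, 36.1 and 22.2 CPM in clone 3 and 1.93, 0.576 and 2.23 CPM in clone 19, against 0, 0.093 and 0.979 CPM in GMPs (log2 fold change 3.04 ± 0.17 SE, adjusted p = 8.6e-12). Cdkn2c (p18) was at 6.43, 22.5 and 40.3 CPM against 3.42, 4.22 and 8.48 CPM (log2 fold change 1.73 ± 0.16 SE, adjusted p = 1.5e-08), and Cdkn1c (p57) was at 7.19, 8.21 and 5.75 CPM in clone 19 against at most 0.467 CPM in GMPs. Cdkn2d (p19) was not called without the 4 GMP libraries that stood apart (0.90, against 1.68 with all). Of 12 replication genes 1 was called higher (Pole2, 1.09) and 1 lower (Pola1, -1.08). Neither gene was called without the 4 GMP libraries that stood apart (0.34 and -0.92). Pole2 was also not called after TMM scaling (0.96) or without clone 19 (0.68). Of 7 mitosis genes 0 were called by limma, edgeR or DESeq2, with 3 at an unadjusted p under 0.05 in limma. QuantSeq targets polyadenylated transcripts, so histone transcripts that are not polyadenylated are not covered by the values that follow. Of 50 replication-dependent histone genes 0 were called higher and 15 lower (median -0.46), 19 lower after TMM scaling and 11 without the 4 GMP libraries that stood apart. By clone, 28 were lower in clone 3, 18 in clone 19 and 0 in clone 1, which had 2 higher, and 36 differed between clones in the F test. Hist1h2ab was at 611, 701 and 511 CPM in clone 1, 225, 328 and 154 CPM in clone 3 and 297, 246 and 137 CPM in clone 19, against 523, 965 and 2263 CPM in GMPs. Hist1h2ad and Hist1h2ai had nearly the same value as Hist1h2ab in every library, so reads may be counted for several copies and these 3 genes are taken as 1 measurement of uncertain origin.

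Among metabolic genes, Phgdh, the first enzyme of serine synthesis, fell from 102, 137 and 151 CPM to 4.93, 9.29 and 31.1 CPM (log2 fold change -3.31 ± 0.10 SE, adjusted p = 5.9e-16), in each clone and without overlap. The lactate transporters moved apart: Slc16a3 (MCT4) was at 35.2, 81.2 and 157 CPM against 5.72, 9.58 and 17.5 CPM (log2 fold change 2.88 ± 0.25 SE, adjusted p = 3.9e-09). Slc16a1 (MCT1) was at 2.51, 6.06 and 11.3 CPM against 22.8, 28.1 and 36.04 CPM (log2 fold change -2.01 ± 0.15 SE, adjusted p = 4.3e-10). Of the 16 respiratory chain genes tested, 1 was called higher (Cox7a1, 1.04) and 0 lower, with a median of -0.39. Cox7a1 was not called after TMM scaling (0.96), without clone 3 (0.85) or without clone 19 (0.97).

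By difference of CPM, the largest gain among genes called was that of Tmsb4x, at 1279, 2697 and 5061 CPM against 21.4, 559 and 2036 CPM (log2 fold change 3.06 ± 0.79 SE, adjusted p = 0.0015), whose change was 1.06 (adjusted p = 0.0036) without the 4 GMP libraries that stood apart. Cd63, a tetraspanin of granules and endosomes, was at 554, 1197 and 2339 CPM against 221, 519.9 and 611 CPM (log2 fold change 1.60 ± 0.23 SE, adjusted p = 5.5e-06). Pgd, an enzyme of the pentose phosphate pathway, was at 1144, 1342 and 1834 CPM against 386, 512 and 694 CPM (log2 fold change 1.41 ± 0.14 SE, adjusted p = 3.1e-08). Among genes called lower, the largest losses included those of Gm42418, Mpo and H3f3b. H3f3b, a gene of histone H3.3, was at 712, 951 and 1394 CPM against 2378, 2650.2 and 3150.1 CPM (log2 fold change -1.49 ± 0.11 SE, adjusted p = 4.4e-10). H3f3b and Pgd did not overlap between the groups, whereas Cd63 did. Fam49b (1.41) and Arpc1b (1.10), both regulators of actin, gained as well, the latter not called after TMM scaling (0.93) or without those libraries (0.79), and the histone gene Hist1h2ao lost (-1.37, and -0.78 without those libraries, not called). Calr, the chaperone calreticulin, was at 522, 754 and 911 CPM against 972, 1749 and 2067 CPM (log2 fold change -1.14 ± 0.15 SE, adjusted p = 1.4e-06).

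The largest differences between clones were in genes close to 0 in 1 or 2 of them. Tcf24, a basic helix-loop-helix factor, was at 293, 302 and 203 CPM in clone 3 and 92.9, 107 and 87.5 CPM in clone 19, at 2.94, 0.37 and 0.487 CPM in clone 1 and at most 0.57 CPM in GMPs. Slc32a1, the vesicular GABA transporter, and Col6a3, a chain of collagen VI, had the same pattern, with 1.92, 0.37 and 0.73 CPM and 4.22, 0.093 and 0.122 CPM in clone 1 and clone means against GMPs of 5.15 and 4.09 (log2) in clone 3 and 4.57 and 5.65 in clone 19. Hoxb5, a homeobox gene of the HoxB cluster, was at 8.04, 8.70 and 7.67 CPM in clone 3, 0, 0.093 and 0 CPM in clone 1 and 0, 0 and 0 CPM in clone 19. Col19a1 was at 23.4, 28.96 and 26.9 CPM in clone 1 and 6.33, 6.34 and 7.51 CPM in clone 19 but only 0.201, 0.466 and 0.426 CPM in clone 3. Skida1 was at 38.7, 35.3 and 38.4 CPM in clone 19 and below 1 CPM in all other libraries, and Mtus2 at 61.2, 70.8 and 51.5 CPM in clone 19 against 1.43, 2.89 and 7.85 CPM in GMPs. Ly6k, a GPI-anchored surface protein, was at 135, 71.7 and 84.3 CPM in clone 1 and 23.4, 36.4 and 83.9 CPM in clone 3, while clone 19 (1.39, 1.15 and 3.05 CPM) lay in the GMP range of 0.326 to 2.85 CPM. The F test called each of these genes, with adjusted p from 2.9e-15 (Skida1) to 6.4e-09 (Mtus2).

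In 28 genes 1 clone was called higher and another lower than the same GMPs. Ccnd1, the D-type cyclin of most tissues, was at 69.5, 168 and 181 CPM in clone 1, 30.4, 18.4 and 27.7 CPM in clone 3 and 3.22, 3.17 and 5.16 CPM in clone 19, against 21.2, 30.1 and 42.2 CPM in GMPs, and its mean change was -0.30. Satb1, an organizer of chromatin in lymphoid cells, was at 27.1, 15.6 and 14.8 CPM, 8.04, 7.45 and 16.02 CPM and 249, 257 and 271 CPM in the same order, against 28.5, 36.8 and 47.4 CPM, with a mean change of -0.02. Etv5, an ETS factor, was at 10.6, 45.1 and 41.01 CPM, 6.33, 2.25 and 3.75 CPM and 0, 0.288 and 1.06 CPM against 4.66, 10.9 and 18.5 CPM, and Tmem215 at 0.383, 0.093 and 0.243 CPM, 92.3, 98.4 and 76.3 CPM and 95.6, 83.6 and 90.5 CPM against 6.08, 7.27 and 13.003 CPM. With 1 primary recipient per clone, a difference between clones and a difference between donor animals or tissues of storage cannot be told apart.

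**Figure D5:**
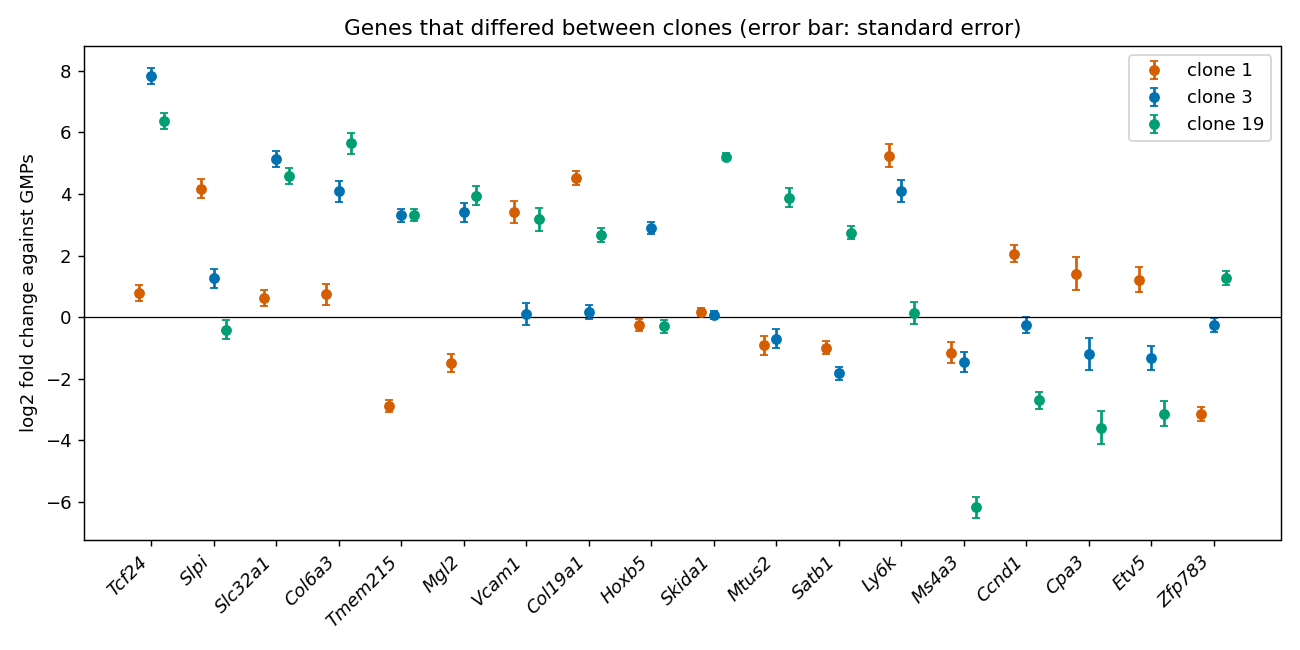
Log2 fold change against GMPs of 18 genes that differed between clones, for clones 1, 3 and 19 (points; error bars are standard errors of the fit); the clones share the 9 GMP libraries. Tcf24 is high in clones 3 and 19, Slpi in clone 1, Skida1 and Mtus2 in clone 19, and Hoxb5 in clone 3.

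On the deposited CPM, a few genes held their level within narrow limits. The 95% interval of the log2 fold change lay within -0.3 to 0.3 for 22 genes. Nasp, a chaperone of histones, was at 153, 210.0 and 282 CPM against 174, 212 and 254 CPM, with an interval of -0.19 to 0.20. Pcyt1a, an enzyme of phosphatidylcholine synthesis, was at 79.8, 101 and 142 CPM against 92.2, 108 and 122 CPM, with an interval of -0.19 to 0.16. In both genes the groups overlapped over most of their range. After TMM scaling the log2 fold change was -0.16 for Nasp and -0.18 for Pcyt1a. Whether their intervals stay within the limits on that scale was not tested.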

How the data were processed

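Per the study's methods, the authors sequenced 3′ mRNA libraries (QuantSeq), trimmed reads with cutadapt 1.9, aligned them to mm10 with HISAT2, counted them with featureCounts and fitted them with voom and limma. The deposited values are CPM per library, calculated by the authors, for 5486 genes with an FDR under 0.05 in a contrast that the table does not name. Its log2 fold changes and FDRs were not used, nor were 9 columns of other libraries. A column shows its clone or the GMP group, not its sample, so columns were used as replicates of groups, and control sets A, B and C were taken from the column names.

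Genes at 1 CPM or more in at least 3 of 18 libraries were tested with limma 3.58.1 (R 4.3.3) on log2(CPM + 1), with a trend in the prior variance, a mean per clone and 1 for GMPs, and Benjamini-Hochberg adjustment over all genes. Calls needed an adjusted p below 0.05 with a log2 fold change of 1 or more in size. The contrast was the mean of the clone means minus GMPs, and a moderated F test compared clones, or control sets. The study describes 3 biological replicates for each clone and 9 control mice. The labels name no animal for libraries of a clone and 3 mice for each GMP library, so p-values measure the spread between libraries, whose source the labels do not settle. Members and lists were chosen with earlier results of these data known, and lists were not tested as sets. Genes were named by rule: the study's cytokines, the 10 largest fold changes each way without overlap, the 8 largest CPM differences each way, up to 6 called members and the defining markers of a list, the 6 genes farthest apart per clone, genes called in opposite directions, and genes with intervals within 0.3 of 0. From these the report gives a selection, some genes are not reported here, and members behind most counts of 5 or fewer on the mean of the clones are named as well, chosen after their values were seen.

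Whole reads were recovered from the CPM steps (100% of values whole within 0.1 in every library, with a step of 1 read close to 0.1 CPM in 3 of them) and given to edgeR 4.0.16 and DESeq2 1.42.0 as alternatives. Other alternatives were pseudocounts of 0.5 and 3, no filter or 5 CPM, TMM scaling, quantile normalization, totals without Gm42418, and leaving out each library, clone or control set. The fit was also run with clone means and control set means as samples, and with central AML as 1 group. Leaving out GMP libraries 22, 23, 25 and 26 was chosen after seeing the data. The fit was tested on simulated data. Bounds against 0 cover counting error only. Promoters came from RefSeq tables.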

Additional observations from a re-analysis of the deposited data

Results flagged for a closer look

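In each group of 9 libraries, the highest and the lowest library were compared with the nearest of the others. A library is given here where that gap divided by the range of the group exceeded Dixon's 95% critical value for 9 libraries. For genes the gap and the range were taken on log2(CPM + 1), while the values given are CPM. Of 314 such tests 26 passed, and chance passes about 1 in 20. Library 9 of GMP set A stood apart 9 times: it had 747 genes at 0, the highest number of the GMP libraries, and was the lowest or the highest GMP library for Stfa1 (highest, 1.58 CPM), Pf4 (lowest, 9.32 CPM), Cd27 (lowest, 23.3 CPM), Bcl11a (lowest, 14.6 CPM), Klf6 (lowest, 435 CPM), Angpt1 (lowest, 10.3 CPM), Col19a1 (highest, 1.49 CPM) and Il6st (lowest, 9.51 CPM). GMP library 25 stood apart for Ifitm1 (highest, 195 CPM), Prtn3 (lowest, 603 CPM), Lpl (lowest, 1.99 CPM), Hoxb5 (highest, 1.39 CPM), Pgf (highest, 0.596 CPM) and Cdh1 (lowest, 3.47 CPM). GMP library 7 did so for Cdkn2a (highest, 0.979 CPM) and GMP library 23 for Cdkn1c (highest, 0.467 CPM). In central AML the 9 cases were all in libraries of clone 1, with library 17 for Itgb2 (highest, 75.5 CPM), Tnfaip3 (highest, 4.99 CPM), Nlrp3 (highest, 14.4 CPM) and Car1 (highest, 0.128 CPM), library 19 for Hoxa5 (lowest, 12.5 CPM), Aqp1 (highest, 5.64 CPM) and Il1r1 (highest, 1.76 CPM) and library 21 for Ncf4 (lowest, 70.6 CPM) and Gp5 (highest, 0.243 CPM). The parts of library, clone and gene in these values were not tested.

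Among the genes named in the report, 89 differed between the clones by the F test with a range of clone means of at least 1, among the 1362 genes (27.2% of those tested) that did so. The range, on the scale of log2(CPM + 1), follows each gene in parentheses, and genes are grouped by the clone that lay farther from the middle one. Clone 1 was the higher one for Cpa3 (5.00), Slpi (4.59), Etv5 (4.35), Prg2 (4.18), Ccnd2 (3.88), Angpt1 (3.59), Igf1r (3.56), Flt3 (3.27), Gm5483 (3.04), Itga6 (2.84), Stfa1 (2.77), BC117090 (2.75), Gm42418 (2.73), BC100530 (2.67), Cdh1 (2.39), Nkg7 (2.25), Phgdh (2.16), Klf6 (2.16), Prss34 (2.15), Nfkbiz (2.13), Ngp (2.13), Itga2b (2.02), Pbx3 (1.91), Cd33 (1.89), Cd93 (1.71), Adgrg1 (1.69), Hist1h2ad (1.49), Hist1h2ai (1.48), Hist1h2ab (1.48), Plek (1.47), Nlrp3 (1.41) and Eya1 (1.27). Clone 1 was the lower one for Tcf24 (7.04), Tmem215 (6.20), Mgl2 (5.44), Col6a3 (4.90), Slc32a1 (4.54), Mpo (3.26), F7 (3.00), Cxcl12 (2.80), Apoc2 (2.29), Il1rn (2.09), Elane (2.04), Hoxa7 (1.31), Prtn3 (1.27), Cd27 (1.196), Csf2ra (1.15), Arpc1b (1.06), Cd177 (1.04) and Pgf (1.01). Clone 3 was the higher one for Hoxb5 (3.19), Ifi27l2a (2.89), Irf7 (2.74), Ifit3 (2.68), Lyz2 (2.17), Oas2 (1.78), Gbp7 (1.14), Pirb (1.10) and Hoxa10 (1.09). Clone 3 was the lower one for Col19a1 (4.33), Cxcl2 (3.32), Vcam1 (3.31), Fosb (3.23), Jun (2.01), Ier3 (1.76), Cdkn2c (1.68), Klf4 (1.60), Trem1 (1.59), Atf3 (1.55), Kmt2a (1.46), Tnf (1.39) and Vegfa (1.27). Clone 19 was the higher one for Skida1 (5.16), Mtus2 (4.78), Satb1 (4.57), Cdkn1c (1.98), Sox4 (1.63) and Bcl11a (1.02). Clone 19 was the lower one for Ly6k (5.10), Ms4a3 (5.03), Ccnd1 (4.76), Lpl (3.88), Mef2c (3.71), Cdkn2a (3.49), Stfa3 (3.06), Hpgd (2.78), Irf8 (1.59), Lgals3 (1.47) and Il6st (1.35). Each clone came from 1 primary recipient, so these ranges do not separate clones from the animals they came from.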

How the results depend on the processing

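Genes called both as reported and under an alternative had the same direction under each alternative run, but the counts varied. Both calls needed a change of 1 or more in size, so a change of direction, here and above, was hardly possible. A pseudocount of 3 gave 941 calls (556 higher and 385 lower), 879, 1268 and 1219 calls in clones 1, 3 and 19, and 866 between clones. On whole reads, edgeR called 1297 genes lower and DESeq2 1247. With clone means and control set means as samples, 1438 genes were called (827 higher and 611 lower), all of them among the calls reported. Central AML as 1 group gave 1649 calls. Without 1 library at a time, calls were 1582 to 1713 (887 to 1014 higher, 669 to 742 lower), 1390 to 1586, 1905 to 2097 and 1879 to 2070 in clones 1, 3 and 19, 1215 to 1361 between clones and 4 to 840 between GMP control sets. The last count was 258 with all libraries and 5 without clone 3 and also 5 without clone 19. The cause was not tested. Of 240 counts of genes under an alternative, 221 were within 1.5 times the main count. Of the log2 fold changes of genes chosen by the naming rule, 6828 kept their side of the threshold, 163 were no longer called and 32 became called. A further 6 changed sign, counted only where the adjusted p as reported was under 0.05. These 6 were Zfp783 without clone 1 (0.51), Dach1 without clone 3 (0.31), Mtus2 (-0.80) and Cpa3 (0.11) without clone 19, and Hoxb5 by edgeR (-0.97) and DESeq2 (-0.76). Other sign changes, such as those of Ccnd1 without clone 19 (0.90) and Satb1 without clone 3 (0.88), were counted by side of the threshold alone. Medians of 8 lists, 0.03 to 0.38 as reported, changed sign in 37 cases, by more than the SD between clones for chemokines and cytokines (-0.43) and AML antigens (-0.38) without clone 1 and glycolysis (-0.19) without GMP libraries 22, 23, 25 and 26. In the other 34 (to -0.29) the lists were these 3, dendritic, interferon, mitosis and replication genes and myeloid factors. No paired analysis was possible because the labels give the clones and the GMP sets no shared replicate numbers. Depth limits genes near 0, such as Hoxb5 and Il12a, and the preselected table limits every share of genes.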

Other observations

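Of 170 processed pseudogenes tested, copies of genes that lack introns, 7 were called higher and 41 lower, with a median log2 fold change of -0.65, against 867 and 595 of 4319 protein-coding genes with a median of 0.34. Long intergenic RNAs (23 higher and 7 lower of 82, median 0.63), antisense RNAs (15 and 5 of 69, median 0.52) and small nucleolar RNAs (2 and 5 of 20, median -0.72) are given as values, with no test of a difference between classes. Reads of a processed pseudogene can come from its parent gene, and reads of an antisense gene from its partner, so these values are uncertain for single genes. The libraries target polyadenylated transcripts, so small nucleolar RNAs that are not polyadenylated are not covered. The classes come from the annotation in the reference, which matched 4884 of the genes tested by symbol once.

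By chromosome, the median log2 fold change was highest on chromosomes 7 (0.57, 383 genes) and 8 (0.51, 250 genes) and lowest on chromosomes 18 (-0.19, 108 genes), 13 (-0.13, 215 genes) and 19 (-0.12, 159 genes). Chromosome 13 holds the largest cluster of histone genes, and without replication-dependent histone genes its median was 0.22 over 174 genes, a setting chosen after seeing the data.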
